A study of Mus musculus with 884 samples.

Results

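The replication domain that holds Ptn is a stretch of 14 adjacent bins of 80 kb on mouse chromosome 6, chr6:36080001-37200000 in the mm9 build, out of 30890 autosomal bins. It was selected on these data: it is a run of bins in which the share of mid-S cells with the bin replicated was higher by 0.3 or more at day 7 (d7) than at day 0 (d0) of differentiation. Among 190 such runs of at least 5 bins it ranked 7 by its mean gain of 60.7 points. The values of mid-S cells at d0 and d7 therefore chose the domain and are given as a description. Days 2 to 6, the epiblast stem cells, and all cells outside mid-S phase did not enter that rule. The domain was still picked among such runs with earlier results of these data known. The bins that hold Ptn under this definition are the 2 bins at chr6:36640001-36800000, a placement that was not checked against an mm9 annotation. Flanks of 12 whole bins were read on each side, chr6:35120001-36080000 on the left (lower coordinates) and chr6:37200001-38160000 on the right. At the edges, the d7 share exceeded that of d0 by 34.5 points in the leftmost bin inside and by 15.99 points in the bin just outside it. On the right these gains were 33.2 points inside and 16.9 points outside.

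Ptn encodes pleiotrophin, a secreted heparin-binding growth factor that is made in the developing nervous system and binds the receptor phosphatase Ptprz1. Mammalian DNA is replicated in large units, each copied at a characteristic time of S phase, and genes that are active tend to lie in units copied early. During the differentiation of embryonic stem cells many such units move to an earlier or a later time. A region between an early and a late unit can be copied progressively by forks that enter from the early side.

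In single-cell Repli-seq a cell is sorted by its DNA content, its genome is amplified and sequenced, and each bin is called replicated or not. The cells were CBMS1, a female CBA/MsM embryonic stem cell line in 2i/LIF medium at d0. Daily samples of the same line from d2 to d7 followed a protocol of 2 days as epiblast-like cells and then floating aggregates in plain GK15 medium, which yields neurectoderm. Epiblast stem cells (EpiSC), female cells of strain C57BL6 grown with Activin and FGF, formed the eighth group, so that cell state and strain cannot be told apart for them. The labels named no separate cultures. With each group taken as 1 sample, groups were not tested against each other, and the 95% intervals given (exact, Clopper-Pearson) reflect counting error alone.

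How much of its called genome a cell had replicated, as a percentage of bins, is its replication score, which serves as its position in S phase. Of 805 S-phase cells, the 293 labelled with a score of 40 to 70% are called mid-S cells here. Of these, 59 came from d0, 35 from d2, 13 from d3, 18 from d4, 20 from d5, 21 from d6 and 26 from EpiSC, and the rest, the largest group, from d7. Their mean scores lay between 52.3% at d2 and 57.1% in EpiSC. All 293 had a call in each of the 14 bins. In 7 of them (3 at d0, 1 at d4 and 3 at d7) the calls ranked the bins of their own group's mean profile poorly, with an area under the curve below 0.8. The authors' own filters had marked 28 of them. Calls were the same in no pair among the 650 cells scored between 10 and 90%.

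The promoter of Ptn, the site at which the gene can be switched on, is shown for reference, and whether Ptn was expressed was not examined. These are the 250 bases before its start in RefSeq (GRCm38.p6), on the minus strand. Read 5′ to 3′, each CG dinucleotide, the target of DNA methylation, is in capitals:
Ptn promoter: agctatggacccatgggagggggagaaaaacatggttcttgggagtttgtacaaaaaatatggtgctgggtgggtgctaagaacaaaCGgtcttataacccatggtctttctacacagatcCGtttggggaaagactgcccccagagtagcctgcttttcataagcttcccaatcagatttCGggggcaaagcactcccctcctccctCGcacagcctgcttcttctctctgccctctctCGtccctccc
The dinucleotide CG, which reads the same on both strands, occurs 5 times in it, against a median of 6 over 32851 promoters of the same length. At least 1 CG is present in 92.1% of them, and 49.6% hold 5 or fewer. The promoter's content of G and C was 52%, and the median was 52.4%. Calls in 80 kb bins do not resolve this sequence, and its build differs from that of the calls, so it was not placed within a bin. On the same chromosome, the nearest named genes in that reference are Slc13a4, Fam180a, Mtpn, Chrm2 (the muscarinic M2 receptor) and Nup205 (a nuclear pore subunit) towards lower coordinates. Dgki (a diacylglycerol kinase), Creb3l2, Akr1d1 (a steroid reductase), Trim24 and Svopl lie towards higher coordinates. They are given for orientation, and none was assigned to a bin.

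The domain passed from almost never replicated in mid-S cells of naive stem cells to mostly replicated by the last days of differentiation. A cell was counted as having the domain replicated when over 50% of its called bins there were. At d0 this held for 2 of 59 mid-S cells (3.39%, 95% interval 0.413 to 11.7), and at d2 for 0 of 35 (interval 0 to 10.0). It held for 1 of 13 cells at d3 (7.69%, 0.195 to 36.03) and for 6 of 18 at d4 (33.3%, 13.3 to 59.01). The d5 count was 13 of 20 (65.0%, 40.8 to 84.6) and the d6 count 17 of 21 (80.95%, 58.1 to 94.6). At d7 84 cells had the domain replicated (83.2%, 74.4 to 89.9). In EpiSC it was 15 of 26 (57.7%, 36.9 to 76.6). The intervals of d4, d5, d6 and EpiSC all lay above those of d0 and d2, that of d4 by the smallest margin. That of d7 did too, but d0 and d7 chose the domain, so their separation is only a description. When at least 80% of the bins were required, d4 fell to 5.56% (0.141 to 27.3), d5 to 20% (5.73 to 43.7) and EpiSC to 19.2% (6.55 to 39.4). Their intervals then overlapped those of d0 (0.0429 to 9.09) and d2 (0 to 10.0). That of d6 (76.2%, 52.8 to 91.8) still lay above, as did that of d7 (52.5%, 42.3 to 62.5), which took part in the selection. In order of level the groups ran d2, d0, d3, d4, EpiSC, d5, d6 and d7, and the intervals of every adjacent pair in this order overlapped. The place of d6 and d7 turned when at least 80% of the bins were required, and also by the mean share over bins (80.6% at d6 and 74.3% at d7).

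The d0 cells with a replicated domain included 1 that does not follow its group's profile. It had a score of 61.4%, all of its domain bins replicated and an area under the curve of 0.458, and it was among the cells marked by the authors. The other had a score of 58.97%, 78.6% of its domain bins replicated and an area of 0.953. Without the marked cells, d0 had 1 of 55 and d4 had 6 of 15. The d5 count was then 13 of 16 (81.3%), that of d6 17 of 19, that of d7 80 of 90 and that of EpiSC 13 of 24.

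The 2 Ptn bins are part of the domain, so their counts are not independent of its counts. Over 50% of 2 bins means both bins. By this count their shares equalled those of the domain at d0 and d5 and were higher in the other 6 groups, within the intervals. By mean share over bins they stood below the domain at d0 (3.39% and 13.6%) and d2 (7.14% and 8.16%), and above it in the other 6 groups. More than 50% of the called Ptn bins were replicated in 2 of 59 cells at d0, 2 of 35 at d2, 3 of 13 at d3 (23.1%) and 7 of 18 at d4 (38.9%). The d5 count was 13 of 20 (65.0%) and the d6 count 18 of 21 (85.7%). At d7 87 cells had them replicated (86.1%), and in EpiSC 17 of 26 (65.4%). The right flank was early throughout. Its replicated share in mid-S cells, averaged over its bins, lay between 83.01% in EpiSC and 99.2% at d5, with 88.8% at d0 and 93.3% at d7.

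**Figure D1:**
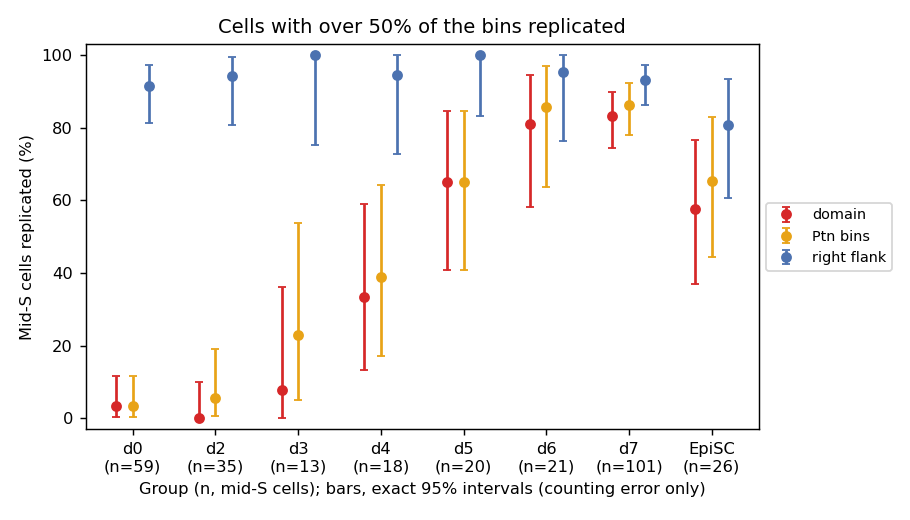
Percentage of mid-S cells (scores of 40 to 70%) in which over 50% of the called bins were replicated, for the domain (14 bins), the Ptn bins (2) and the right flank (12), by group. Points are shares and bars exact 95% intervals for counting error; the domain goes from 3.39% at d0 to 83.2% at d7 while the right flank is at 80.8% or above in all 8 groups.

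Bin by bin, the same mid-S cells were also compared with those of d0 by the size rule of 0.3. No domain bin was past it at d2 (0 of 14), where 1.54% of all autosomal bins rose by 0.3 or more over d0. At d3 it was 5 of 14, against 5.06% of all bins, and at d4 5 of 14, against 3.23%. At d5 11 of 14 domain bins were past it, against 4.4% of all bins, and at d6 14 of 14, against 6.11%. In EpiSC 9 of 14 were past it, against 7.36%. At d7 all 14 were, as the selection requires, against 7.75% of all bins. No domain bin was lower by 0.3 or more in any group, against 6.98% of all bins at d2, 8.79% at d3, 7.02% at d4, 6.15% for d5, 8.81% for d6, 7.71% for d7 and 6.34% in EpiSC. A bin with a d0 share below 0.3 cannot fall that far. Only the domain bins from chr6:36960001-37040000 rightwards, with d0 shares of 30.5 to 55.9%, could have done so. The absence of lower bins was thus largely fixed by the low d0 shares. The median difference from d0 over the domain bins was -1.96 points at d2 and 12.0 at d3, then 24.2 for d4, 49.1 for d5 and 73.6 for d6, with 44.6 in EpiSC. Over all autosomal bins these medians lay between -1.69 points at d3 and 1.55 points at d5. The count at d3 rested on few cells: without the 1 marked d3 cell and the 4 marked d0 cells it was 3, and against the 9 d0 cells of the present series alone it was 1. For d4, that last comparison gave 2 bins.

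The domain was not uniform, and its shares rose from left to right. At d0 it formed the floor of a late valley. The lowest bin, chr6:36240001-36320000, was replicated in 1.69% of mid-S cells, and both Ptn bins stood at 3.39%. To the right of Ptn the d0 share climbed to 30.5% at chr6:36960001-37040000 and to 55.9% in the rightmost domain bin. At d7 the floor lay outside the domain, at chr6:35840001-35920000 in the left flank, with 17.8%. From there the d7 share rose to 39.6% in the leftmost domain bin, 86.1% in both Ptn bins and 92.1% at chr6:36960001-37040000. EpiSC had a similar slope with a lower left side, from 7.69% in the leftmost domain bin to 50.0% at chr6:36400001-36480000 and 80.8% in the Ptn bin on the right. The d6 profile was the highest over the left side of the domain, from 57.1% in the leftmost bin to 80.95% at chr6:36400001-36480000. The left flank did not follow the domain: its mean share was 54.4% at d0, 29.8% at d2 and 42.9% at d5. It was 63.5% on d6, 51.4% on d7 and 58.97% in EpiSC. At d2, 4 of its 12 bins were lower than at d0 by 0.3 or more, against 6.98% of all autosomal bins, and 3 were against d0 cells matched in score. At d4 it was 2 of 12, against 7.02% of all bins, and 0 against matched d0 cells.

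**Figure D2:**
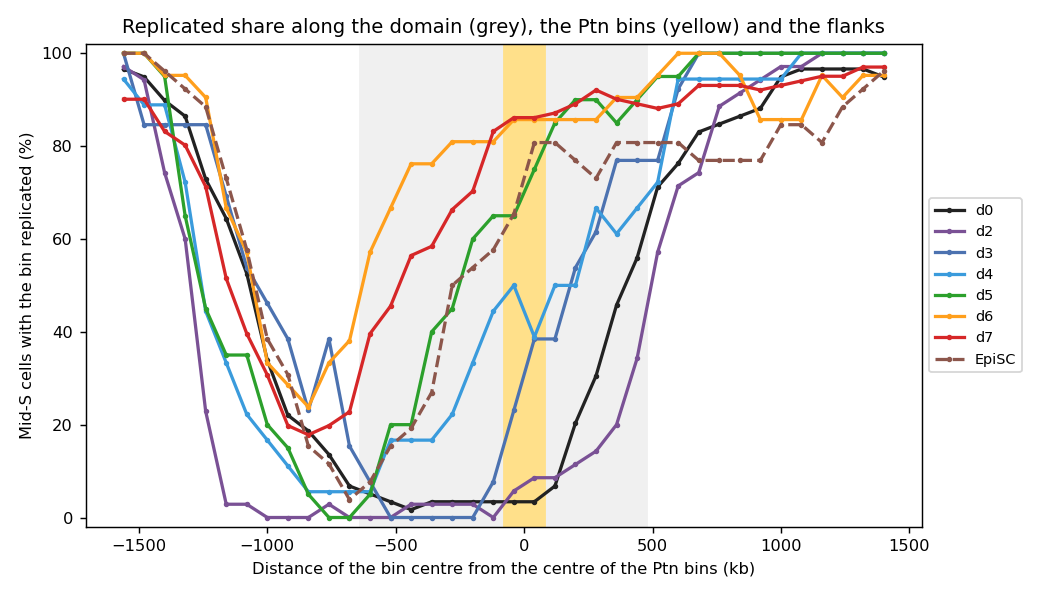
Percentage of mid-S cells with each 80 kb bin replicated, by distance of the bin's centre from the centre of the Ptn bins (kb), 1 line per group. Grey marks the domain and yellow the Ptn bins. In the Ptn bins d0 stands at 3.39% and d7 at 86.1%. The lines come closer to each other in the right flank and at the outer end of the left flank. Within the left flank they stay spread, from 2.86% at d2 to 73.1% in EpiSC at chr6:35520001-35600000.

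Within single cells the bins changed state at 1 boundary in most cases. Among mid-S cells with both replicated and unreplicated bins in the domain, 86.1% (95% interval 80.1 to 90.9) had a single step, with the replicated side on the right. The reverse step was seen in 3 cells, a replicated island in 8, an unreplicated gap in 4 and other patterns in 9. For comparison, single steps of either direction made up 90.9% of mixed cells in the domain at d0 and 69.1% of mixed windows of 14 bins across the autosomes. At d7 these shares were 92.9% and 72.8%, and in EpiSC 85.7% and 67.7%. Day 4 differed, with single steps in 53.3% of its 15 mixed cells against 60.5% of windows. The whole domain was replicated in 1 of 59 cells at d0, 0 of 35 at d2, 12 of 21 at d6, 37.6% of d7 cells and 1 of 26 in EpiSC. It was wholly unreplicated in 25 cells at d0, 21 at d2, 2 at d6, 7 at d7 and 4 of EpiSC.

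The unbroken replicated stretch was measured leftwards from the right edge of the domain, and could run on into the left flank. It was set to 0 kb in cells whose first right-flank bin was unreplicated, whatever their domain calls. That bin was replicated in 42 of 59 cells at d0, 20 of 35 at d2 and 13 of 18 at d4. By this measure the median stretch was 80 kb at d0 and 0 kb at d2. The median was 320 kb at d3, 240 kb at d4 and 720 kb at d5. It was 1120 kb at d6, which is the full length of the domain, 960 kb at d7 and 760 kb in EpiSC. The stretch ran past Ptn in 2 of 59 cells at d0, 2 of 35 at d2, 3 of 13 at d3, 3 of 18 for d4 and 12 of 20 for d5. It did so in 18 of 21 at d6, 82 cells of d7 (81.2%) and 16 of 26 in EpiSC.

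**Figure D3:**
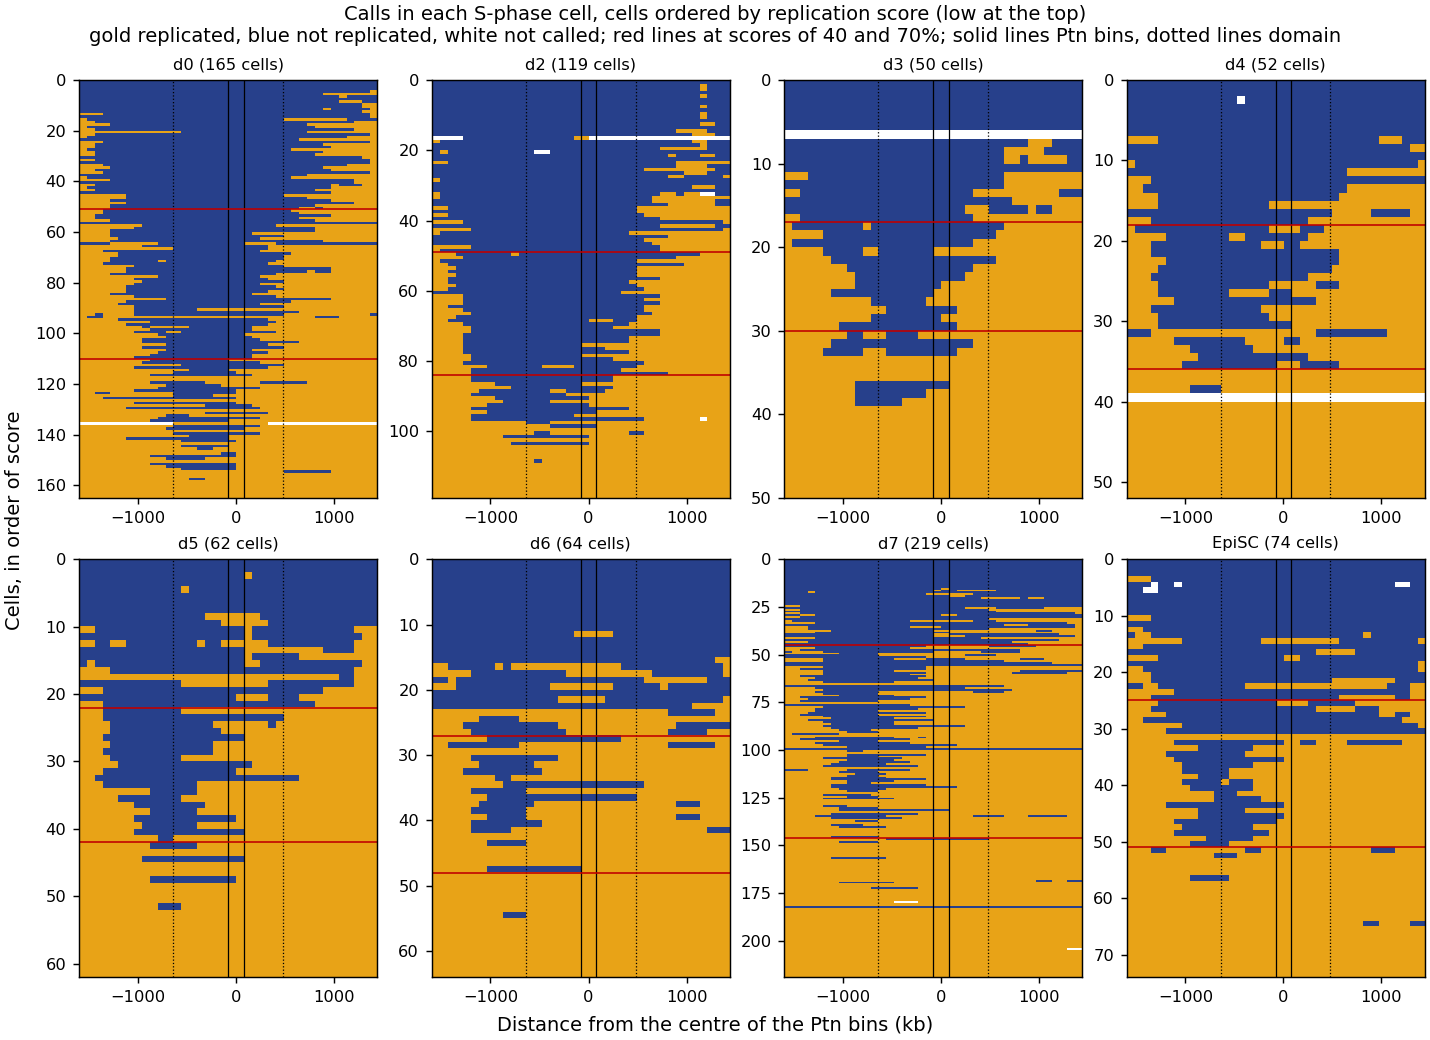
Calls in each of the 805 S-phase cells over the domain (dotted lines), the Ptn bins (solid lines) and the flanks, with cells ordered from low to high replication score downwards and red lines at scores of 40 and 70%. The horizontal axis is the distance from the centre of the Ptn bins (kb) and the vertical axis the rank of the cell; the unreplicated wedge (blue) reaches past the 70% line at d0 and d2, and narrows and shifts left of Ptn at d6 and d7.

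Over the whole of S phase, the score at which 50% of the domain's bins were replicated fell with differentiation. This midpoint, from a logistic curve over cells with scores of 5 to 95%, was 73.9 at d0, 74.7 at d2, 67.5 at d3 and 56.7 at d4. It then fell to 46.1 at d5 and 33.8 at d6, and was 45.9 at d7 and 53.4 in EpiSC. The Ptn bins had midpoints of 74.8 at both d0 and d2, 67.4 at d3 and 54.1 at d4. Their midpoint was 36.7 on d5, 26.5 on d6, 38.6 on d7 and 46 in EpiSC. The domain was thus reached 17.2 score points earlier at d4 than at d0, 27.9 earlier at d5, 40.2 earlier at d6 and 20.5 earlier in EpiSC. At d5 the curve was shallow: 39.4 score points separated 25% from 75% replicated, against 14.6 to 25.8 points in the other 7 groups. For the Ptn bins the d5 curve was shallower still, with 48.8 points against 10.3 to 24.6 in the other groups. The d5 midpoint of 36.7 therefore marks the time of the Ptn bins only loosely. The right flank had midpoints between 23.4 at d4 and 42.3 in EpiSC. The domain trailed it by 42.7 points at d0, 33.3 at d4, 14.7 at d5, 12.2 at d7 and 11.2 in EpiSC. At d6 the difference was -0.285 points. The sorting gates of d6 need to be set beside this: the median scores of its gates at 25, 35 and 45% of S phase were 21.4, 17.5 and 22.5%, not in the order of the gates. Their part in the d6 value was not tested.

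Cells outside mid-S phase, which did not enter the selection rule, showed the same difference between d0 and d7 late in S phase. With scores of 70 to 85%, the domain was replicated in 20 of 45 cells at d0 (44.4%, 29.6 to 60.003) and in 36 of 38 at d7 (94.7%, 82.3 to 99.4). In this class 8 of the 14 bins were higher at d7 by 0.3 or more, against 7.86% of all autosomal bins. Only 1 of the 2 Ptn bins was among them. A bin with a d0 share above 70% cannot rise that far. The domain bins from chr6:36720001-36800000 rightwards had d0 shares of 73.3 to 95.5% in this class, so the count was capped by them. In this class d2 had 10 of 22, d3 had 4 of 7, d4 had 3 of 3, d5 had 8 of 10, d6 had 8 of 8 and EpiSC had 10 of 10. From a score of 85% on, every cell of every group had the domain replicated, with 10 such cells at d0 and 35 at d7. Early in S phase, with scores of 10 to 40%, the domain was replicated in 0 of 48 cells at d0 (interval 0 to 7.40) and in 1 of 31 at d7 (3.23%, 0.0816 to 16.7). None of 32 cells at d2 and 0 of 10 at d3 had it replicated, against 1 of 10 at d4, 2 of 14 at d5 and 2 of 15 in EpiSC. At d6 the count was 7 of 18 (38.9%, 17.3 to 64.3). Part of the d7 cells had been corrected with the same merged G1 control as the d6 cells, and among those 1 of 14 early cells had the domain replicated.

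The sorting gates are labels and not computed from the calls, but they did not hold the same scores in every group. In the gate at 75% of S phase the domain was replicated in 25 of 59 cells at d0, 12 of 16 at d2 and 9 of 10 at d3. For d4 it was 8 of 8, for d5 11 of 12, for d6 10 of 10, for d7 31 of 33 and for EpiSC 11 of 12. In the gate at 25% it was replicated in 0 of 52 cells at d0, 0 of 21 at d2 and 1 of 11 at d5. For d6 it was 6 of 11, for d7 9 of 35 and for EpiSC 1 of 13. Median scores in the 75% gate were 76.6% for d0 and 81.7% for d7, but 91.04% for d2, 93.4% for d3 and 91.4% for d4, in a range where every cell had the domain replicated. The counts of d2, d3 and d4 in this gate therefore cannot be set against that of d0. Those in the 25% gate were 26.6% for d0, 20.8% for d2, 31.2% for d7 and 6.53% in EpiSC.

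In early S phase at d5, a bin inside the domain was replicated in more cells than the nearest bin of the right flank. The bin just right of the Ptn bins, chr6:36800001-36880000, was replicated in 11 of 14 d5 cells with scores of 10 to 40% (78.6%, 49.2 to 95.3). The first bin of the right flank was replicated in 2 of the same 14 (14.3%, 1.78 to 42.8). This bin was singled out after its values were seen, as the highest of the domain at d5. Without cells whose area under the curve was below 0.8, the counts were 9 of 12 and 1 of 12. Across the autosomes 9.25% of bins had a higher share in these d5 cells. At d6 the bin was replicated in 9 of 18 early cells and the first right-flank bin in 5 of 18. At d7 these counts were 7 of 31 and 9 of 31, and in EpiSC 3 of 15 and 4 of 15. The bin was unreplicated in all 48 early cells at d0, all 32 at d2 and all 10 at d3, and replicated in 1 of 10 at d4. Of the 11 early d5 cells with any replicated domain bin, 9 had the rightmost domain bin unreplicated. At d6 this was so in 4 of 9 such cells and at d7 in 8 of 14.

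**Figure D4:**
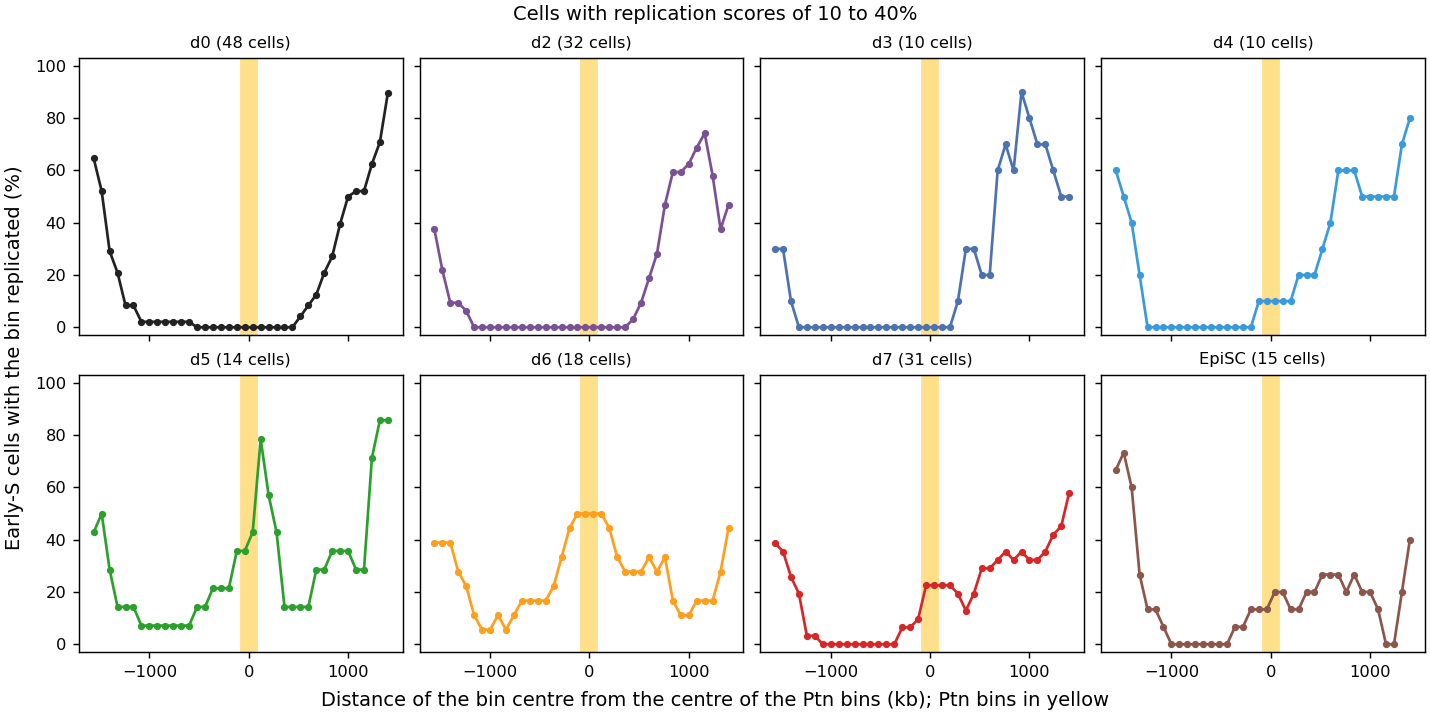
Percentage of early S-phase cells (scores of 10 to 40%) with each 80 kb bin replicated, by distance from the centre of the Ptn bins (kb), 1 panel per group, with the Ptn bins in yellow. At d5 a peak of 78.6% stands beside the Ptn bins, at d6 a broader one of 50.0% covers them, and at d0 and d2 the Ptn bins are at 0.

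Calls in G1 cells were read as a background of replicated calls. Scores of these cells reached 10.6%, and whether any of them had entered S phase was not tested. Of 1008 domain calls in 72 G1 cells, 7 were replicated (0.694%), and no G1 cell had the domain replicated. These 7 calls came from 1 cell of d3, with 35.7% of its domain bins, and 1 cell of d6, with 14.3%. No labelled G1 cell belongs to d5. In 6 unassigned G1 cells that were corrected with the control of the d5 cells, 0 of 84 domain calls were replicated. Whether these cells were themselves merged into that control was not checked, so their count cannot vouch for the d5 calls.

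Within d7, mid-S cells from the previous series had the domain replicated in 32 of 35 (91.4%) and those of the present series in 52 of 66 (78.8%). By merged G1 control the d7 counts were 17 of 22 for the control shared with d6, then 57 of 63, 4 of 5 and 6 of 11. At d0 the counts were 1 of 50 in the previous series and 1 of 9 in the present one. The 2 controls of d2 gave 0 of 12 and 0 of 23. Under the control that d6 and part of d7 share, mid-S cells had the domain replicated in 17 of 21 (d6) and 17 of 22 (d7), with midpoints of 33.8 and 46.2. Days 3, 4 and 5 and EpiSC had 1 control each, which no other group's S-phase cells used, so that control and group cannot be told apart there.

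Set against all autosomal windows of 14 adjacent bins, the mean share of the domain lay at percentile 19.2 at d0, 16.1 at d2 and 28.4 at d3. The percentile was 37.8 for d4, 49.3 for d5, 65.1 for d6, 57.8 for d7 and 44.5 for EpiSC. The domain moved from the later part of the genome to its middle, and at no day was it among the earliest windows.

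Among the 190 regions selected in the same way, the domain had covered more of its d0-to-d7 change by d6 than most. Taking d0 as 0 and d7 as 100%, it stood at -8.89% at d2 and 22.9% at d3. The value was 41.1% for d4, 75.9% for d5 and 110.5% for d6. On these 5 days the medians over all 190 regions were -0.673%, 1.62%, 27.5%, 54.8% and 81.6%. At d2, 74 regions stood below it; from d3 to d6 its rank from the highest was 66, 68, 56 and 20. EpiSC stood at 68.2%, with a median of 66.1% and rank 88. With d0 and d7 cells matched in score, the value at d4 was 61.9% and that at d6 118.5%, with rank 32 at d6. All 190 regions were measured on the same cells and share the d0 and d7 cells that selected them, so these ranks are a description.

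**Figure D5:**
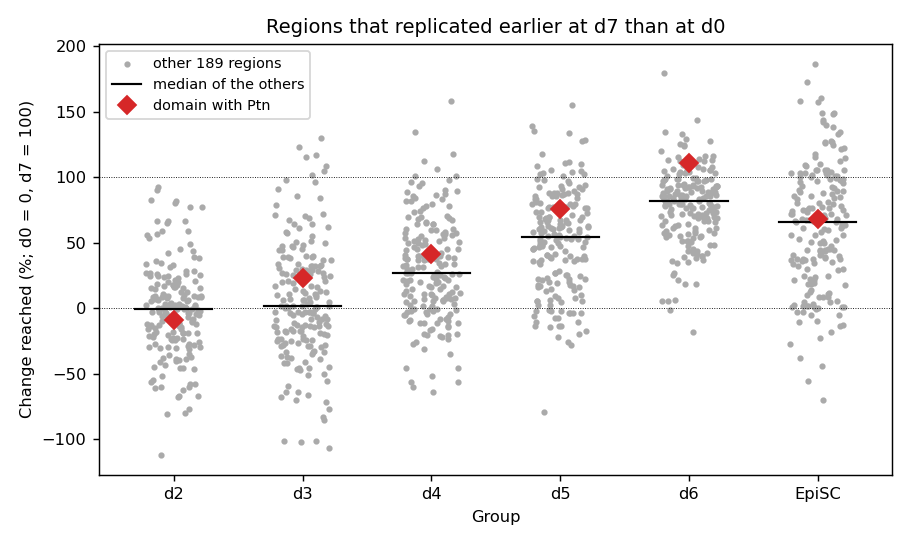
Part of the d0-to-d7 change in mean replicated share that was reached in mid-S cells of each group (%, d0 is 0 and d7 is 100) for the domain (red diamond) and the other regions among the 190 selected by the same rule (grey points; black bars are their medians). The domain stands at -8.89% at d2 and 110.5% at d6.

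The windows most like the domain in mean share over the 8 groups, by root mean square difference among 28528 windows, were chr12:26400001-27520000 (5.20 points) and chr9:68000001-69120000 (7.70 points). They were followed by chr12:29920001-31040000 (8.97), chr7:77680001-78800000 (9.67) and chr11:18240001-19360000 (9.90 points). In the closest window the mean share was 13.8% for d0, 21.2% for d2, 38.9% for d4, 74.8% at d6, 77.3% at d7 and 53.3% in EpiSC. The domain's own means were 13.6%, 8.16%, 38.5%, 80.6%, 74.3% and 54.9% in these groups. This likeness was measured over 8 groups of the same cells.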

How the data were processed

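Per the labels' protocols, DNA of single sorted cells was amplified (SeqPlex) and read as single reads of 80 bp. Cutadapt, BWA 0.7.10-r789 and Picard with mm9 are named in the submitters' processing notes; how they were run is not given in the sources used here. The authors deposited calls per 80 kb bin, made after correction with a merged G1 control per the file headers (1 replicated, -1 not replicated, 0 no data). The deposited replication score is a fraction, printed here as a percentage; recomputed from the calls it differed by at most 5.00e-08 points. The authors' smoothing and thresholds limit how sharply a boundary can be seen. Read depth was not used here; mid-S cells (59 at d0 and 101 at d7, the largest groups) had at least 26813 called bins.

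Groups came from the titles. In 7 G1 cells the labels disagreed, and these entered no group. A bin was used where at least 50% of a group's cells had a call. Midpoints are logistic fits allowing 1% wrong calls. The area under the curve measures how well a cell's calls rank the bins of its group's mean profile. Matching in score paired every cell with the closest cell not yet used. The domain, the bins and the rules were chosen with earlier results of these data known. Similar windows lay at least 2 Mb from the domain and 1 Mb from each other, and the 5 closest were named; the 5 nearest named genes on each side were listed by name. Only the size rule and the midpoint fit were tested on simulated data. The size rule was tested with the cell numbers of d0 and d7 and independent bins. The fit was tested with the scores of d7 cells and domains that were wholly replicated or not at all. Smaller groups and the other steps were not tested in this way. Alternatives changed the score window, the origin of cells, the cells left out, the threshold, the bins and the fit; those for early cells, and the percentile without marked cells, were added after seeing the data. Python 3.11.15, numpy 2.4.6, pandas 2.3.3, scipy 1.17.1 and matplotlib 3.10.9 were used.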

Additional observations from a re-analysis of the deposited data

Results flagged for a closer look

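In the G1 cells, 1 cell of d3 stood apart from the other 5 with 35.7% of its domain bins called replicated, and 1 cell of d6 stood apart from the other 6 with 14.3%. All other G1 cells of these days had none. Among the 5 G1 groups of 4 to 10 cells examined for a cell far from the rest, these 2 held one. Because all other cells of these groups are at 0, any cell with a replicated call would have stood apart.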

How the results depend on the processing

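No paired analysis was possible because the cell numbers only name cells and no result comes from a test. Midpoints moved by less than 5 score points in all 28 alternatives run. Of 75 alternatives for the domain share, 65 stayed within the interval of the value reported. This is a loose measure, as the intervals of small groups are wide and most alternatives reuse the same cells. At d5, 81.3% without marked cells still counted as within. Asking for at least 80% of bins gave 0.0% at d3, 5.56% at d4 and 20% at d5, then 76.2% for d6, 52.5% for d7 and 19.2% for EpiSC. The mean share over bins gave 13.6% at d0, 80.6% at d6 and 74.3% at d7. Under both, d6 stood above d7, and at 80% of bins d0 (1.69%) stood above d3. Previous-series cells alone gave 91.4% at d7, and d0 cells matched in score to d4 or to d6 gave 0.0%; causes were not tested. Of 64 alternatives for the number of bins past the size rule, 5 differed by over 1.5 times from the count reported. At d3 the count of 5 became 1 with present-series cells only, 3 without marked cells and 0 at a difference of 0.4. At d4 the count of 5 became 2 with present-series cells only and 3 at a difference of 0.4. Few cells limit d3, d4, d5 and d6 most, and the intervals of adjacent days overlapped.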

Other observations

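The percentile of the domain depended on how it was taken at d0, where the median percentile of its single bins was 4.45 in place of 19.2 for the window, and at d3, with 20.96 in place of 28.4. Without the cells marked by the authors, the window percentile was 54.7 at d5 and 71.5 at d6.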
